A study of Ovis aries with 10 samples.

Results

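The sheep libraries are labeled both as longissimus dorsi, a back muscle, and as primary myoblasts. Of the 8721 circular RNAs (circRNAs) listed in them, 1757 were exonic circRNAs listed with 1 exon block, and they came from 1261 host genes. They were chosen from the deposited structure alone: the feature had to be exonic and to hold exactly 1 block. The label single-exon did not hold for most of them. In only 207 of the 1757 (11.8%) did the block run from one end of the back-splice junction to the other, so that the circle as listed is that 1 exon. These are called end-to-end circRNAs here. In 733 the block touched only the upstream end in the direction of transcription, in 802 only the downstream end, and in 15 neither end. These 1550 are called partly covered. In 1546 of them the block was shorter than 50% of the distance between the junction ends. The 4 others include novel_circ_0017505 of LOC114112704, whose block fills the span but overruns the upstream end by 2 bases, so its edges match only the downstream end.

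A circRNA forms when a downstream splice donor is joined back to an upstream acceptor. In the simplest case both lie on the same exon, which then closes on itself, and exons that circularize alone are known from other studies to be longer than the usual internal exon. Reads across the back-splice junction identify the circle, and reads at the same sites that do not cross it come mostly from linear RNA or from other circles of the host. Circles have no free ends and resist exonucleases, so they can accumulate in tissues whose cells divide little, such as muscle.

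The study compared 5 libraries of ovariectomized small-tailed Han sheep (OR-STH) with 5 libraries of sham-operated small-tailed Han sheep (STH), to examine what estrogen does in the muscle of females. All samples carry both longissimus dorsi and primary myoblasts as labels, with a culture protocol that includes an estradiol gradient but gives no dose for any sample, so whole muscle and cultured cells cannot be told apart from the labels. The labels give no ages and do not say whether each library came from its own animal, and p-values measure only the spread between these libraries. Junction reads per library ranged from 39045 to 67061 in OR-STH and from 35731 to 49887 in STH. OR-STH replicate 5 stood apart, with the most junction reads and with the highest median junction share of circRNAs with 1, 2 and 3 or more blocks. A library with no entry for a circRNA was counted as 0 reads, and the smallest entry in the lists was 2. A higher number of cells of a type and more RNA per cell cannot be told apart in such bulk libraries.

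The distance between the junction ends separated both kinds of 1-block circRNA. End-to-end circRNAs had a median length of 321 bases, from 150 to 1867. Partly covered circRNAs spanned a median of 7621.5 bases, from 306 to 90135, while their block had a median of 139 bases, from 28 to 450. Where the block touched 1 end, the other junction end lay a median of 7412 bases beyond the block. For 411 of these 1535 circRNAs (26.8%) that open end was the edge of an exon block listed for another circRNA. Circles listed with more blocks were closed far more often: 76.7% of the 3014 circRNAs with 2 blocks and 95.1% of the 3155 with 3 or more had blocks that reached both ends. The number of exons between the ends of a partly covered circRNA was not tested, since the exon annotation behind the lists was not used here.

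**Figure D1:**
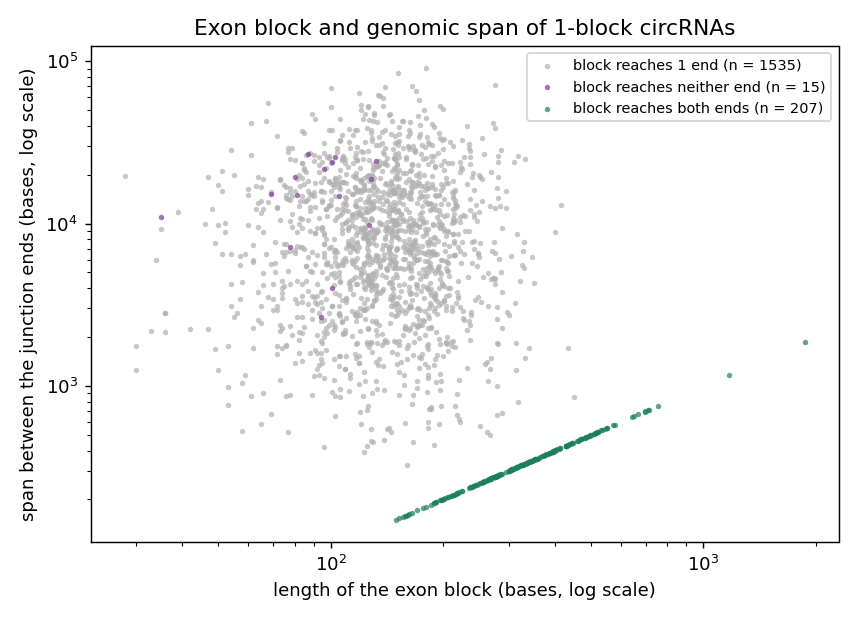
Length of the listed exon block (x axis, bases, log scale) against the span between the junction ends (y axis, bases, log scale) for the 1757 circRNAs with 1 block, 1 point each. The 207 end-to-end circRNAs lie on the diagonal, at 150 bases or more, and the 1550 partly covered ones have spans of 306 bases or more and lie above it, except the LOC114112704 circRNA whose block overruns its span.

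As a set, the end-to-end circRNAs carried more reads than their number would give. They made up 11.8% of the circRNAs with 1 block and held 12287 of their 36971 junction reads (33.2%). The partly covered ones held 24684. Most of the end-to-end reads lay on few circles, since the 25 abundant enough for the group test held 9531 of the 12287. The median was 8 reads per end-to-end circRNA and 6 per partly covered one. Together the 1-block circRNAs took 8.30% of all 445393 junction reads. The share of end-to-end circles was 10.2% among those with 2 to 9 reads, 11.03% at 10 to 29 reads, 12.6% at 30 to 99 reads and 47.2% at 100 reads or more. In the same bands of reads, circRNAs with 1 block fell as a share of exonic circRNAs, at 28.5%, 20.4%, 15.3% and 7.16%.

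Most 1-block circRNAs were rare. Of the 1757, 869 (49.5%) were listed in a single library, against 39.5% of circRNAs with 2 blocks and 26.4% of those with 3 or more. Only 44 (2.50%) were listed in all 10 libraries, against 6.47% of circRNAs with 2 blocks and 16.9% of those with 3 or more. Of these 44, 21 were end-to-end, which is 10.1% of the end-to-end circRNAs, and 23 were partly covered, which is 1.48% of the partly covered ones. A single library listed 94 of the end-to-end circRNAs (45.4%) and 775 of the partly covered ones (50%). For closed circRNAs with 2 and with 3 or more blocks that share was 39.4% and 25.8%.

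Length set the end-to-end circles apart within the list. None of the 899 blocks under 150 bases reached both ends. Of the 444 blocks of 150 to 199 bases 19 did, of the 268 of 200 to 299 bases 66 did, of the 122 of 300 to 499 bases 98 did, and all 24 of 500 bases or more did. The shortest end-to-end circle and the lower edge of that band are both at 150 bases, and the labels do not say whether a minimum distance was set when the circRNAs were called. The median over all 14107 distinct exon blocks of exonic circRNAs was 117 bases.

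A circle made of 1 exon keeps a reading frame around its junction only if its length is a multiple of 3. That held for 89 of the 207 end-to-end circRNAs (43.0%) and for 38.6% of all distinct blocks. Of the 40 end-to-end circRNAs of TTN, the titin gene, 30 were a multiple of 3 long, against 35.3% of the 167 from other genes. End-to-end exons seldom appeared inside longer circles. Only 20 of 207 (9.66%) were also a block of a circRNA with more blocks, against 451 of 1550 (29.1%) of the partly covered blocks.

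Host genes were almost all protein-coding, with 1678 of the 1757 circRNAs. Long noncoding RNA genes hosted 14, a ribosomal RNA gene 3 and a small nucleolar RNA gene 1, and for 61 the host had no entry in the gene table. Of the 1261 hosts, 975 had 1 such circRNA and 14 had 5 or more, and in 464 hosts every listed circRNA had 1 block. TTN, which encodes the sarcomeric spring titin, led with 58. It supplied 40 of the 207 end-to-end circRNAs (19.3%), but only 547 reads, or 4.31% of the junction reads of the gene, and 24 of its 40 end-to-end circRNAs were listed in a single library. Next came CHD2, which encodes a chromatin remodeler, with 7. LMO7, a LIM domain protein gene, ANKIB1, a ubiquitin ligase gene, SYNE1, which encodes the nuclear envelope protein nesprin, and KIF27, a kinesin gene, had 6 each. None of the 6 from LMO7 was end-to-end, and 1 of the 7 from CHD2 was.

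The 10 circRNAs with the most junction reads included 8 end-to-end circles. They are given with the positions of the deposited lists, whose genome build was not stated. A junction is a single site in each circle, so junction reads were not divided by length. Reads were normalized by the scaled library size, which is what normalized junction reads means below.

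The leading circle came from KDM5C, a histone demethylase gene (novel_circ_0017269, chrX:51107291-51107702, minus strand, 412 bases). It had 1196 junction reads in all. Its normalized junction reads were 125, 85.5, 144, 148 and 103 in OR-STH replicates 1 to 5, and 151, 107, 94.8, 106 and 118 in STH replicates 1 to 5. The groups overlapped throughout, and it varied least of all tested 1-block circRNAs, with a coefficient of variation of 19.5% over the 10 libraries. It carried 99.5% of the junction reads of its host.

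The insulin receptor gene INSR and the gene of the insulin-like growth factor receptor IGF1R each gave an end-to-end circle of nearly the same length. The INSR circle (novel_circ_0006630, chr5:13914030-13914581, minus strand, 552 bases) had 1175 reads and the IGF1R circle (novel_circ_0014313, chr18:7252250-7252795, plus strand, 546 bases) had 540. Normalized junction reads of the INSR circle were 124, 79.3, 176, 97.1 and 105 in OR-STH libraries and 97.6, 153, 152, 61.0 and 125 in STH libraries. Those of the IGF1R circle were 59.9, 50.9, 41.2, 52.0 and 30.4 in OR-STH and 42.9, 67.4, 46.3, 60.0 and 91.9 in STH. The INSR means were 116 ± 37.2 in OR-STH and 118 ± 39.0 in STH (SD, n = 5 each), and both circles overlapped between the groups. These circles took 97.8% and 97.5% of the junction reads of their hosts. A second pair of related genes, picked after the values were seen, also gave end-to-end circles of like length: SMAD5 with 572 bases (novel_circ_0006867, 85 reads) and SMAD1 with 578 bases (novel_circ_0013442, 22 reads), both encoding signal transducers of bone morphogenetic proteins.

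NAPEPLD, which encodes a phospholipase that makes N-acylethanolamines, gave the least even of the 10 (novel_circ_0006173, chr4:45941729-45942035, minus strand, 307 bases, 931 reads). Its normalized junction reads were 32.0, 188, 92.9, 134 and 103 in OR-STH libraries and 135, 22.9, 25.9, 46.3 and 113 in STH libraries. Low and high libraries occurred in both groups. It was the only listed circRNA of its gene, as were the circles of PTGDR, a prostaglandin receptor gene (novel_circ_0008217, chr7:43417432-43417766, plus strand, 335 bases, 530 reads), and RAB5C, a GTPase gene of early endosomes (novel_circ_0010927, chr11:41992837-41993317, minus strand, 481 bases, 457 reads). PTGDR had 35.3 to 96.1 normalized junction reads in OR-STH and 42.0 to 57.3 in STH, and RAB5C had 34.8 to 46.8 in OR-STH and 22.6 to 80.8 in STH.

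PANK1, which encodes a kinase at the start of coenzyme A synthesis, gave a circle of 353 bases (novel_circ_0015367, chr22:11094066-11094418, minus strand, 599 reads), with 34.1 to 88.0 normalized junction reads in OR-STH and 37.7 to 70.1 in STH. FUT10, a fucosyltransferase gene, gave a circle of 295 bases (novel_circ_0016803, chr26:28291429-28291723, minus strand, 390 reads). They held 85.8% and 95.8% of the junction reads of their hosts. Among the 25 end-to-end circRNAs abundant enough for the group test, 18 held more than 80% of the junction reads of their host, 8 were its only listed circRNA, and 2 had a block found in a longer list. Of the 26 partly covered ones in that test, 9 held more than 80%, and 11 had a block found in a longer list.

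The other 2 of the 10 were partly covered. GPCPD1, which encodes a phosphodiesterase of glycerophosphocholine, gave novel_circ_0012025 (chr13:47430215-47438538, minus strand), with 957 reads. Its block of 124 bases touched the upstream end of a span of 8324 bases. Normalized junction reads were 97.1, 106, 114, 97.1 and 95.4 in OR-STH and 67.7, 89.0, 102, 109 and 53.5 in STH, so that the OR-STH libraries lay close together inside the STH range or just above it. LMO7 gave novel_circ_0010446 (chr10:51439764-51442349, plus strand), with 427 reads and a block of 279 bases at the upstream end of a span of 2586 bases. It had 28.5 to 74.6 normalized junction reads in OR-STH and 29.3 to 65.0 in STH.

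**Figure D2:**
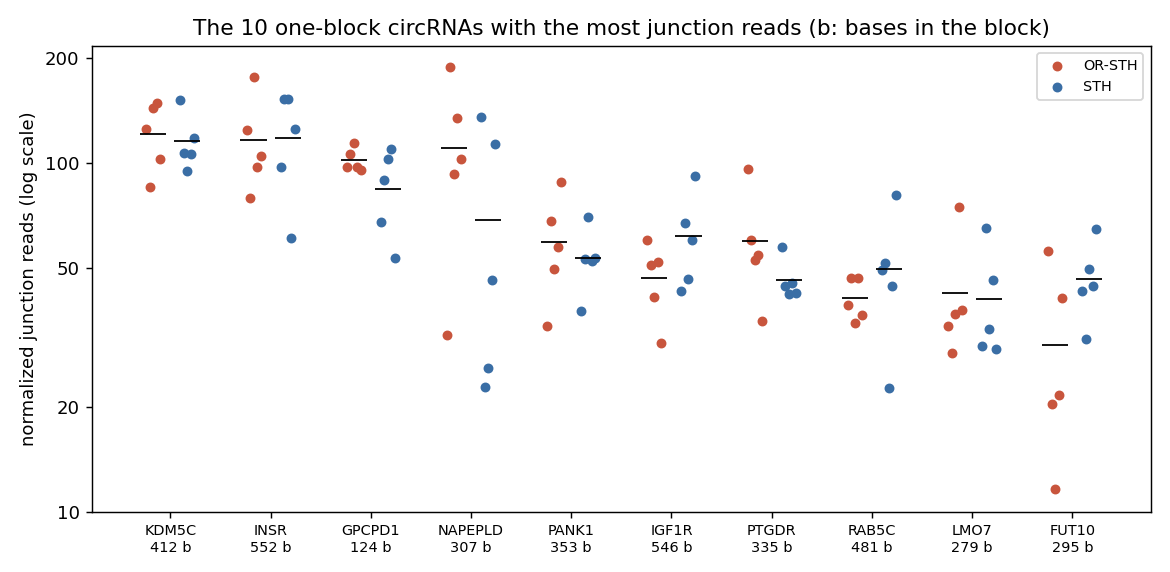
Normalized junction reads (y axis, log scale) of the 10 circRNAs with 1 block and the most reads, with 5 OR-STH libraries (left, red) and 5 STH libraries (right, blue) each, 1 point per library and the mean as a bar. KDM5C varies least and NAPEPLD spans 22.9 to 188, and the groups overlap in all 10.

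Among circRNAs listed in all 10 libraries, the longest single exons were those of PALS2, INSR, IGF1R, ASH1L and RAB5C. PALS2, which encodes a membrane-associated scaffold protein, circularized an exon of 1170 bases (novel_circ_0006383, chr4:72805013-72806182, minus strand, 280 reads). The ASH1L circle (novel_circ_0000078, 521 bases, 279 reads) comes from a histone methyltransferase gene. The longest of all, named after its values were seen, was 1867 bases in RBM33, an RNA-binding protein gene (novel_circ_0005920, 62 reads in 7 libraries). The 5 shortest blocks in all 10 libraries were all partly covered. They were 36 bases in RPAP2, a phosphatase gene of RNA polymerase (novel_circ_0001683, span 2817 bases), and 76 bases in MBTPS2, a membrane protease gene (novel_circ_0017156, span 1795 bases). The others were 102 bases in ASH1L (novel_circ_0000073, span 16836 bases), 105 bases in ZNF638, a zinc finger gene (novel_circ_0005701, span 5585 bases), and 106 bases in NCOA6, a nuclear receptor coactivator gene (novel_circ_0012131, span 4443 bases).

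The ratio to non-junction reads was expressed as a junction share, which is junction reads as a percentage of junction plus non-junction reads. What counts as a non-junction read is not stated, and such reads are treated here as ones that meet the junction ends without crossing from one to the other. Over the 10 libraries the median junction share was 3.77% for end-to-end circRNAs and 3.47% for partly covered ones. Only 11 and 27 of them, in that order, had more junction than non-junction reads. Among tested circRNAs the highest shares were 73.4% for PTGDR, 61.2% for YAF2, a Polycomb-associated protein gene (novel_circ_0004467, 326 bases), 48.1% for FUT10, 47.7% for IGF1R and 47.0% for the partly covered novel_circ_0009377 of LOC114116088. By library, PTGDR had 73.8% to 93.4% in OR-STH and 55.7% to 78.6% in STH, and YAF2 had 44.6% to 93.5% in OR-STH and 34.9% to 75.5% in STH.

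The lowest share among tested circRNAs belonged to the end-to-end TTN circle novel_circ_0002264 (279 bases), with 119 junction reads beside 153081 non-junction reads, a share of 0.0777%. It was followed by SRSF1, a splicing factor gene, at 1.49% (novel_circ_0011146), the junctophilin gene JPH1, of the triad membranes, at 2.64% (novel_circ_0009812), LMO7 at 3.69% (novel_circ_0010453) and ZNF638 at 3.98% (novel_circ_0005701). These last 4 were partly covered. Over the 40 end-to-end TTN circRNAs the median junction share was 0.023%, against 5.21% for the 167 end-to-end circRNAs of other genes.

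Longer end-to-end exons tended to have higher junction shares. The median share was 0.063% at 150 to 199 bases, 3.04% at 200 to 299, 5.17% at 300 to 499 and 7.79% at 500 or more, where the first band holds 19 circRNAs. Over the 97 end-to-end circRNAs with at least 10 reads, Spearman's rho between length and junction share was 0.31, and between length and junction reads 0.34. These circRNAs share libraries and in part hosts, so the values are a description. The bands and both rho values include TTN circRNAs. The 40 end-to-end ones of TTN had a median length of 283.5 bases and a median share of 0.023%. The other 167 had 338 bases and 5.21%. Whether the trend holds without TTN was not tested. Over 579 partly covered circRNAs with at least 10 reads, rho between block length and junction share was 0.03.

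Within each library, listed 1-block circRNAs differed from circRNAs with more blocks in exon length, junction share and reads, but the direction of the last 2 depended on which circRNAs were compared. Exon length is the median over listed circRNAs of the mean block length. It averaged 150.8 ± 4.59 bases over the 10 libraries for 1 block, 138.9 ± 1.14 for 2 blocks and 109.8 ± 0.404 for 3 or more (SD, n = 10). It was higher for 1 block in 10 of 10 libraries in both comparisons, with a two-sided exact sign-flip permutation p of 0.00195, the smallest this test can give, and an adjusted p of 0.00293 over 6 comparisons. For the end-to-end circles alone it was 349 ± 15.5 bases, against 147 ± 1.59 and 110.5 ± 0.32 for circRNAs with 2 and with 3 or more blocks that also reached both ends. For the partly covered ones it was 139 ± 4.24 bases, below the closed 2-block circRNAs in 10 of 10 libraries. The mean block length divides the summed block length of a circRNA by its number of blocks. The medians of that sum were 321, 285 and 364 bases for closed circRNAs with 1, 2 and 3 or more blocks. With sums this alike, the measure falls as blocks increase. No end-to-end circle was under 150 bases either, so the direction among closed circRNAs was largely fixed beforehand.

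The median junction share averaged 3.97% ± 0.997 for 1 block, 4.51% ± 1.05 for 2 blocks and 5.30% ± 1.15 for 3 or more (SD, n = 10). It was lower for 1 block in 8 of 10 libraries against 2 blocks and in 10 of 10 against 3 or more, with adjusted exact permutation p of 0.00937 and 0.00293. End-to-end circles went the other way. Their median share was 7.61% ± 2.87, higher in 10 of 10 libraries than the 4.72% ± 1.07 of closed 2-block circRNAs and the 5.40% ± 1.17 of closed circRNAs with 3 or more blocks. Partly covered circRNAs had 3.73% ± 0.917, lower than both in 10 of 10 libraries. The higher share of end-to-end circles did not hold with each circRNA counted once over the 10 libraries. The median was then 3.77% for end-to-end circles, and 3.84% and 4.27% for closed circRNAs with 2 and with 3 or more blocks.

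Junction reads per listed circRNA followed the same order as the library medians of junction share. The library median averaged 4.4 ± 0.699 reads for 1 block, 5.15 ± 1.06 for 2 blocks and 7.00 ± 1.15 for 3 or more (SD, n = 10), with adjusted exact permutation p of 0.0156 and 0.00293. For end-to-end circles it was 8.35 ± 1.45 reads, higher than the 5.50 ± 0.972 of closed 2-block circRNAs in 10 of 10 libraries, and higher than the 7.00 ± 1.15 of closed circRNAs with 3 or more blocks in 8 of 10. Both directions also turned when only circRNAs listed in all 10 libraries were kept, a set whose 44 with 1 block include 23 partly covered ones. The 1-block difference from 2 and from 3 or more blocks was then 2.61 and 3.91 percentage points in junction share and 3.30 and 1.05 in reads. Adjusted exact permutation p was 0.0417 and 0.00781 for junction share and 0.00781 and 0.148 for reads. The junction share against 2 blocks and the reads against 3 or more were each higher in 7 libraries and lower in 3. The reads difference from 3 or more blocks thus turned in sign only. The libraries list many of the same circRNAs, so they repeat these comparisons rather than giving 10 independent sets of circles. A circRNA listed in several libraries also counts in each of them. Counted once by total reads, end-to-end circles had a median of 8 reads. Closed circRNAs with 2 and with 3 or more blocks had 9 and 18, so the higher reads of end-to-end circles did not hold. The split by closure was chosen after the structure was seen.

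**Figure D3:**
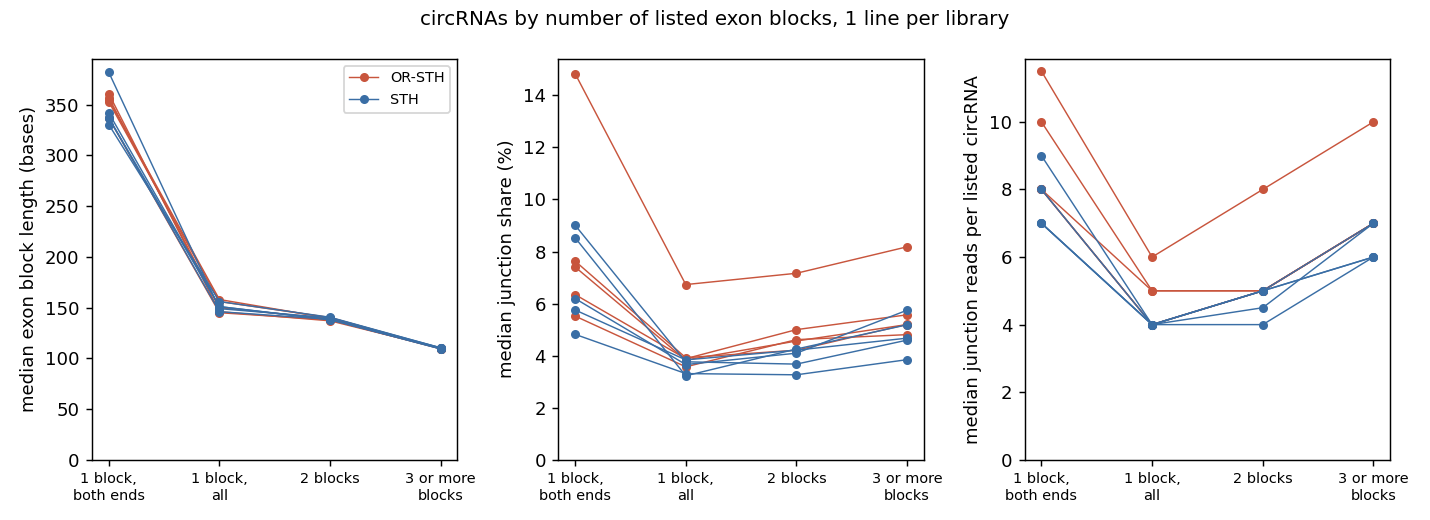
Median exon block length (bases), median junction share (%) and median junction reads per listed circRNA in each library, for end-to-end circRNAs, all 1-block circRNAs, and those with 2 and with 3 or more blocks, 1 line per library (OR-STH red, STH blue). End-to-end circles lie above all 1-block circRNAs in every library and panel, and OR-STH replicate 5 is the upper line for junction share.

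Variation between libraries was about as wide as for other circRNAs. The median coefficient of variation of normalized junction reads was 46.1% over the 51 tested 1-block circRNAs and 42.9% over all 738 tested. After KDM5C, the least variable were those of GPCPD1 at 20.3%, the partly covered novel_circ_0005790 of ANKIB1 at 27.3%, PANK1 at 28.1% and INSR at 30.7%. The most variable was the end-to-end circle of B3GALNT1, a glycosyltransferase gene (novel_circ_0000836, 495 bases), at 124%. It had 0, 25, 13, 0 and 20 junction reads in OR-STH libraries and 43, 0, 14, 60 and 0 in STH libraries, so it was listed in 3 libraries of each group. LOC114116088 (novel_circ_0009377) followed at 107%, ZBTB40, a zinc finger gene (novel_circ_0003423), at 80.3%, TTN (novel_circ_0002264) at 76.7% and GRIP2, which encodes a scaffold of glutamate receptors (novel_circ_0014667), at 73.8%.

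None of the 7 genes listed as known from human, mouse or fly for a circle of a single exon had an end-to-end circRNA here. Of HIPK3, HIPK2, ZNF609, SLC8A1, FOXO3, CDR1 and MBNL1, 4 hosted any circRNA and 2 hosted circRNAs with 1 block. HIPK3, a protein kinase gene, had novel_circ_0012916 with 27 reads and novel_circ_0012914 with 4, each with a block of 124 bases at the downstream end. MBNL1, which encodes a splicing regulator, had novel_circ_0000905 with 39 reads and novel_circ_0000902 with 35. None of the 4 reached the filter of the group test.

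Of the 30 genes on the muscle fiber list, 15 hosted 86 circRNAs with 1 block, of which 46 were end-to-end, with 1070 reads. TTN gave 58 of the 86, 40 of the 46 and 547 of the reads, and the JPH1 circRNA novel_circ_0009812 gave 248 reads. Of 16 myoblast and satellite cell genes, 4 hosted 6 with 593 reads, and IGF1R gave 542 of them. Of 16 estrogen receptor and target genes, 4 hosted 1 each with 32 reads together, led by the nuclear receptor coactivator gene NCOA1 with 18. Of 25 MAPK pathway genes, 3 hosted 1 each with 65 reads together, of which MAPK14, the p38 kinase gene, gave 57. None of 6 proliferation genes hosted any. Over these lists 3 circRNAs were tested and 0 differed between groups past the threshold.

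Among markers of cell types, 1-block circRNAs came from 5 of 7 skeletal muscle fiber genes, 1 of 4 smooth muscle and pericyte genes and 2 of 5 endothelial genes, and from 0 of 3 immune, 0 of 3 Schwann cell, 0 of 4 adipocyte and 0 of 6 fibroblast genes. The 4 myoblast and satellite cell markers PAX7, MYF5, MYOD1 and MYOG hosted no listed circRNA of any kind. Summed junction reads per library on the muscle fiber markers ranged from 8 to 92 in OR-STH and from 38 to 154 in STH. Of the other lists, endothelial markers had 0 to 8 in OR-STH and 0 in all STH libraries, led by PECAM1 with 9 reads, and smooth muscle and pericyte markers had 0 to 5 in OR-STH and 0 to 4 in STH, all 17 reads from ABCC9. Whether a gene forms circRNAs depends on the gene, so these counts do not measure cell content.

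Among 1-block circRNAs, the genes of the study's title and the estrogen receptors hardly appeared. FAM171A1 hosted 2 partly covered circRNAs with 15 and 8 reads (novel_circ_0011821 and novel_circ_0011822), both with the block at the downstream end. They held 11.5% and 6.15% of the 130 junction reads of the gene, which had 3 listed circRNAs of any structure. ESR1, the estrogen receptor gene, hosted 1 end-to-end circle of 336 bases (novel_circ_0009386), with 5 reads in OR-STH replicate 2 and no entry elsewhere. MAPK15, ESR2 and GPER1 hosted no 1-block circRNA.

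At the level of whole libraries, none of 4 measures differed between OR-STH and STH after adjustment. The share of junction reads on 1-block circRNAs was 8.76% ± 0.392 in OR-STH and 7.79% ± 1.18 in STH (SD, n = 5 each), a difference of 0.972 percentage points with a two-sided exact permutation p of 0.135. The OR-STH libraries lay close together, from 8.31% to 9.31%, inside or just above the STH range of 6.75% to 9.29%. The difference was 0.315 percentage points without the most abundant circRNA of the series, which comes from SENP6 and is not a 1-block circRNA. The end-to-end circles alone took 2.90% ± 0.213 of reads in OR-STH and 2.66% ± 0.299 in STH (exact permutation p = 0.183), a difference of 0.241 percentage points that was 0.33 without OR-STH replicate 5 (exact permutation p = 0.0317). That library had the lowest OR-STH value, 2.55%, so leaving it out could only widen the difference. This subset was chosen after the structure was seen, and its p-values were not adjusted.

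The share of listed circRNAs with 1 block was 14.9% ± 0.768 in OR-STH and 14.9% ± 0.304 in STH (exact permutation p = 0.921). Their median block length was 151.0 ± 5.83 bases in OR-STH and 150.6 ± 3.65 in STH (exact permutation p = 0.929). The smallest p over the 252 regroupings is 0.00794.

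**Figure D4:**
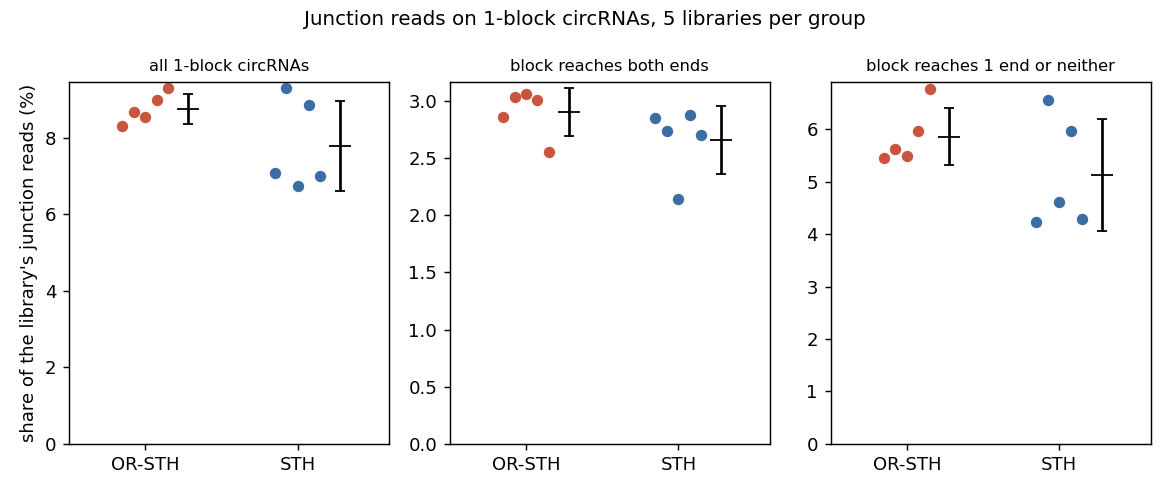
Share of each library's junction reads (y axis, %) on all 1-block circRNAs, on end-to-end ones and on partly covered ones, for 5 OR-STH libraries (left, red) and 5 STH libraries (right, blue), with mean ± SD as a bar. OR-STH libraries average 8.76% and STH libraries 7.79% in the first panel, and the groups overlap in all panels.

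The summed junction share of 1-block circRNAs was 1.19% ± 1.18 in OR-STH and 0.406% ± 0.121 in STH (SD, n = 5 each), with an exact permutation p of 0.0476, which did not pass after adjustment over the 4 measures (adjusted p = 0.190). OR-STH replicate 5 and 1 ribosomal RNA gene shaped this value. Without OR-STH replicate 5 the difference was 0.267 in place of 0.783 percentage points (exact permutation p = 0.0952). The 3 circRNAs of the ribosomal RNA gene LOC114112704 had 72 junction reads and held 46.9% of all non-junction reads of 1-block circRNAs. They were listed in 2 of 5 OR-STH and 5 of 5 STH libraries. Without them the share was 1.5% ± 1.00 in OR-STH and 0.853% ± 0.318 in STH (exact permutation p = 0.167). For the end-to-end circRNAs alone, a subset chosen after the structure was seen, it was 1.55% ± 2.21 in OR-STH and 0.222% ± 0.0970 in STH, a difference of 1.33 percentage points (exact permutation p = 0.0238). That difference was 0.345 without OR-STH replicate 5 (exact permutation p = 0.0476) and 1.07 without the ribosomal RNA gene (exact permutation p = 0.262). Without both it was 0.110 percentage points (exact permutation p = 0.524). As a median over all 1-block circRNAs it was 4.39% ± 1.32 in OR-STH and 3.56% ± 0.275 in STH (exact permutation p = 0.0952).

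No single circRNA with 1 block differed between OR-STH and STH past the threshold. The limma voom fit covered the 738 circRNAs of any structure with enough reads, of which 0 (0%) had a Benjamini-Hochberg adjusted p under 0.05. The 51 with 1 block, 25 of them end-to-end, had a smallest adjusted p of 0.781. At an unadjusted p under 0.05, 0 were higher and 2 lower in OR-STH, against 1.22% higher and 4.47% lower of all tested, 5.69% together. With library totals alone in place of the scaled sizes the split was 2 higher and 0 lower, and over all tested 27 higher and 12 lower in place of 9 and 33.

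Log2 fold changes, OR-STH over STH, were positive for 31 and negative for 20 of the 51, and for 351 and 387 of all 738 tested. The median of the 51 was 0.16, against -0.04 over all tested, and 0.32 against 0.14 with library totals alone. The median was 0.00 for the end-to-end and 0.31 for the partly covered ones. The median standard error of a single log2 fold change was 0.44 for the 51, and a change of that size was not detectable with these libraries. It was 0.39 for the end-to-end and 0.76 for the partly covered ones.

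**Figure D5:**
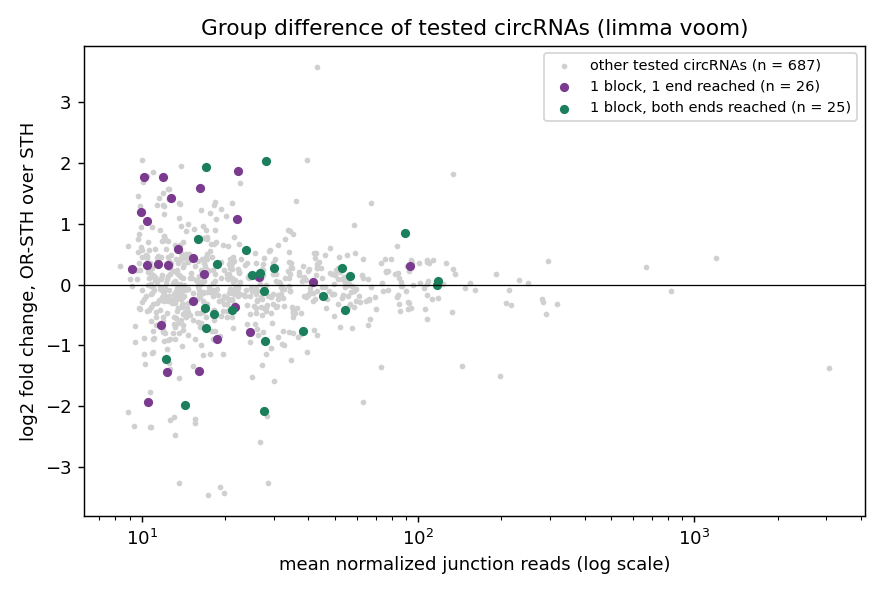
Log2 fold change, OR-STH over STH (y axis), against mean normalized junction reads (x axis, log scale) for the 738 tested circRNAs, with the 25 end-to-end (green) and 26 partly covered (purple) ones marked. None passed the threshold, and the marked points lie within the range of the others.

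Among the estimates above 0, the smallest p belonged to the partly covered SRSF1 circRNA novel_circ_0011146 (chr11:8494451-8495842, minus strand). Its normalized junction reads were 23.8, 14.2, 15.8, 18.2 and 20.5 in OR-STH and 3.9, 8.4, 6.5, 3.9 and 4.0 in STH. Every OR-STH library lay above every STH library, which held for 1 of the 51 and for 0.542% of all tested. It passed the read filter through OR-STH libraries alone, with 14 to 33 junction reads there and 3 to 7 in STH libraries. Because the filter kept it only through the group where it was high, this separation is a description. The means were 18.5 ± 3.77 in OR-STH and 5.35 ± 2.03 in STH (SD, n = 5 each), and the fit put the log2 fold change at 1.77 ± 0.85 (SE; limma adjusted p = 0.781). In the authors' deposited table, whose fold change runs STH over OR-STH, it is -1.83, with a p of 0.000243 and an adjusted p of 0.527. Its non-junction reads were 582 to 847 in OR-STH and 734 to 1254 in STH, and its junction share was 1.77% to 5.37% in OR-STH and 0.318% to 0.661% in STH. It is the only listed circRNA of the gene, and its block of 119 bases touched the upstream end of a span of 1392 bases.

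The next smallest p among estimates above 0 belonged to circRNAs of LOC105605336, DNMT3A, ZNF148 and KIF27, none past the threshold. The circRNA novel_circ_0017140 of LOC105605336, a long noncoding RNA gene, had 13.4, 18.3, 20.1, 19.1 and 20.5 normalized junction reads in OR-STH and 6.5, 6.0, 5.4, 14.8 and 3.0 in STH. Only STH replicate 4 reached into the OR-STH range. All OR-STH libraries, with 13 to 33 junction reads, met the filter's level of 10 reads. Of the STH libraries only replicate 4 did, with 15. Its log2 fold change was 1.42 ± 0.71 (SE; limma adjusted p = 0.781). The DNMT3A circRNA (novel_circ_0005220), from a DNA methyltransferase gene, was at 1.88 ± 0.98 and at 0.44 without STH replicate 4, which had no entry. The ZNF148 circRNA (novel_circ_0000563), from a zinc finger gene, was at 1.59 ± 0.85 and at 0.34 without STH replicate 5, which had no entry. The end-to-end KIF27 circle (novel_circ_0003616, 385 bases) was at 0.75 ± 0.42, and at 0.49 without STH replicate 5.

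Among the estimates below 0, ZNF638 and PALS2 had the smallest p. The partly covered ZNF638 circRNA (novel_circ_0005701, chr3:93305295-93310879, plus strand) had 16.5, 7.1, 17.9, 19.1 and 8.7 normalized junction reads in OR-STH and 22.1, 24.1, 23.7, 27.6 and 20.2 in STH. Every OR-STH library lay below every STH library, which held for 1 of the 51 and for 0.813% of all tested. Means were 13.9 ± 5.55 in OR-STH and 23.5 ± 2.72 in STH (SD, n = 5 each), and the fit put the log2 fold change at -0.90 ± 0.33 (SE; limma adjusted p = 0.781). The end-to-end PALS2 circle had 16.5, 21.4, 8.4, 20.8 and 26.6 in OR-STH and 40.3, 38.5, 19.4, 31.5 and 55.5 in STH. Its groups overlapped through STH replicate 3, and its log2 fold change was -0.93 ± 0.35 (SE; limma adjusted p = 0.781).

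The end-to-end FUT10 circle had 55.8, 20.3, 11.6, 21.7 and 40.9 normalized junction reads in OR-STH and 42.9, 31.3, 49.6, 44.3 and 64.6 in STH. Low values occurred in 3 OR-STH libraries, and its log2 fold change was -0.77 ± 0.36 (SE; limma adjusted p = 0.781), or -0.51 without OR-STH replicate 3. RPAP2 (novel_circ_0001683) was at -1.44 ± 0.70, and at -0.02 without OR-STH replicate 5, which had 1.2 normalized reads. JPH1 (novel_circ_0009812, chr9:50520811-50584258, minus strand) was at -0.78 ± 0.38, and at -0.43 without OR-STH replicate 2. Of the 10 most abundant circRNAs, those not yet given had log2 fold changes of 0.06 ± 0.21 for KDM5C, 0.00 ± 0.28 for INSR, 0.31 ± 0.22 for GPCPD1, 0.85 ± 0.60 for NAPEPLD, 0.14 ± 0.27 for PANK1, -0.42 ± 0.27 for IGF1R, 0.27 ± 0.27 for PTGDR, -0.19 ± 0.30 for RAB5C and 0.05 ± 0.31 for LMO7 (SE).

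In the authors' deposited table, 20 of the 1757 (1.14%) had a p under 0.05, 7 higher and 13 lower in OR-STH, against 1.35% of all 8721, and 0 of the 1757 had an adjusted p under 0.05. Only 3 of these 20 passed the read filter used here.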

How the data were processed

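CircRNAs were profiled from total RNA with a directional library kit (per the labels' protocols). The submitters' processing notes name HISAT2. The caller of the circRNAs, its genome build and its annotation were not given in the sources used here. The deposited list packs junction and non-junction read counts with library names, and these were unpacked. Its 10 names of other samples were not used. The second deposited table holds, per group, the authors' mean normalized signal, with their log2 fold change (STH over OR-STH), p-value and adjusted value, and its tool is not stated. The list's 11297 circRNAs include 8721 listed here. Starts are counted from 1. Chromosome names and host types came from the ARS-UI_Ramb_v3.0 gene table, where 1212 of 1261 host symbols matched. No sequence was printed, since no genome of the files' build was used.

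The read filter asked for 10 reads, at the depth of the median library, in 5 or more libraries and for a total of 15 or more. Libraries were scaled with trimmed mean of M values (30% of log ratios and 5% of abundances trimmed), and limma voom 3.58.1 (R 4.3.3, statmod 1.5.0) was fitted with group as the only term and robust variances, with a threshold of 0.05 after Benjamini-Hochberg adjustment. The fit ran on the unpacked counts, and a count model was not fitted to them. Library measures were compared by two-sided exact permutation tests and classes by exact sign-flip tests over 10 libraries (Python 3.11.15, scipy 1.17.1). The functions were tested on simulated data. No 2 libraries of a group agreed within sampling noise (chi-square per degree of freedom 4.82 to 20.3).

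Members, lists and tests were chosen with earlier results of these data known. Named circRNAs are the 10 with the most reads, the 5 with the smallest p in each direction, the 5 longest and shortest listed in all 10 libraries, the 5 highest and lowest junction shares, the 5 most and least variable, those of known single-exon hosts and of the study's genes, and the leading hosts of the lists. A host that the rule would name is not reported here. Alternatives covered scaling, filters, variance model, a replicate block, subsets of circRNAs and leaving out each library. Intervals cover counting error only.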

Additional observations from a re-analysis of the deposited data

Results flagged for a closer look

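Of 46 groups of values checked for a library far from the others, 5 had one, and chance flags about 1 in 20. OR-STH replicate 5 had a summed junction share of 1-block circRNAs of 3.25% (Wilson 95% interval 3.18% to 3.33%), where the other OR-STH libraries had 0.412% to 1.05%. The LMO7 circRNA novel_circ_0010446 had 74.6 normalized junction reads in OR-STH replicate 4, where the other OR-STH libraries had 28.5 to 37.8. The DNMT3A circRNA novel_circ_0005220 had 59.5 in OR-STH replicate 5, where the others had 13.4 to 24.3. The ZNF148 circRNA novel_circ_0000563 had 30.3 in OR-STH replicate 4, where the others had 13.7 to 17.4. The PTGDR circle novel_circ_0008217 had 57.3 in STH replicate 1, where the other STH libraries had 42.0 to 45.3.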

How the results depend on the processing

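Over all tested circRNAs the limma fit called 4 of 2690 where 5 or more libraries had 2 or more reads, 30 of 8721 with no filter beyond 1 read, 3 of 738 with the replicate number as a block, and 0 under the other scalings, in limma trend and without any 1 library. Of circRNAs with 1 block it called 6 with no filter, 3 in each direction, and 0 under the other alternatives. The 1 end-to-end circle among the 6 was that of MLLT3, a transcription elongation gene (novel_circ_0004037, 708 bases), with 42, 49, 43, 45 and 29 junction reads in OR-STH and 0, 0, 25, 39 and 19 in STH. Its limma adjusted p was 0.0326 with no filter and 0.820 in the filtered fit, where its log2 fold change was 2.03 ± 1.23 (SE).

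With entries of at least 5 reads only, the OR-STH minus STH difference in the share listed turned to 1.30 percentage points and that in median block length to -3.80 bases. That in summed junction share was no longer under 0.05 by the exact permutation test at 1.00 percentage points with entries of at least 5 reads, 2.56 with circRNAs listed in all 10 libraries, 0.647 without the ribosomal RNA gene, 1.07 for end-to-end circRNAs without that gene and 0.828 as a median. It was 1.33 (exact permutation p = 0.0238) for all end-to-end circRNAs. With the replicate block it stayed at 0.783, and its exact permutation p of 0.0625 is the smallest that 5 pairs can give. Without 1 library it ranged from 0.267 to 0.977, and its p was above 0.05 without any one of OR-STH replicates 2, 3 and 5 and STH replicates 1, 2, 4 and 5. The share listed ranged from -0.374 to 0.118 percentage points and the block length from -1.35 to 1.90 bases without 1 library, each turning sign.

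Against 2 and 3 or more blocks, the 1-block difference in junction share turned to 2.61 and 3.91 percentage points and that in reads to 3.30 and 1.05 for circRNAs listed in all 10 libraries, and to 2.88 and 2.21 percentage points and 2.85 and 1.35 reads for closed circRNAs. The difference of 1.05 reads had an exact permutation p of 0.148. All of these are differences between library medians. With each circRNA counted once, end-to-end circles had the lowest median junction share and the lowest median reads of the closed classes. The exon length difference against 2 blocks turned to -8.05 bases for partly covered ones. The cause was not tested. Listed share and lengths could not be computed for circRNAs listed in all 10 libraries, where they are constant.

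The log2 fold change of INSR was -0.0093 with the block. Without 1 library it ranged from -0.21 to 0.16 for INSR, -0.18 to 0.22 for LMO7 (novel_circ_0010446), -0.41 to 0.054 for RAB5C, -0.050 to 0.31 for PANK1 and -0.028 to 0.20 for KDM5C. Same-numbered libraries had correlations of -0.116 to 0.189 in their deviations from the group means, and no label ties the numbers, so the block is no pairing. Junction reads under about 10 per library limit the test to 51 of 1757 circRNAs.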
